A study of Mus musculus with 2 samples.

Results

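The mouse beta globin cluster and its locus control region were examined in a window on chromosome 7, chr7:103762500-103903200 of mm10, which spans 140.7 kb. The members were 9 protein-coding genes: the adult genes Hbb-bt and Hbb-bs, the embryonic genes Hbb-y, Hbb-bh1 and Hbb-bh2, and the flanking olfactory receptor genes Olfr64, Olfr67, Olfr68 and Olfr69. Every accessible interval that overlaps the window was taken from each replicate's own lists and from the replicated list of the series. The lists thresholded at an irreproducible discovery rate (IDR) of 0.05 gave 10 of the 17777 intervals of replicate 1 and 11 of the 18837 of replicate 2 (mean 10.5 ± 0.707, SD, n = 2). The less strict lists gave 21 of 31830 and 16 of 33552, and the replicated list 22 of 43051. All 9 genes lie on the minus strand, so "upstream of Hbb-y" means towards higher coordinates, and that stretch was chr7:103853300-103885000. The window was drawn around known genes and not by any measured value. Its members, the gene lists and the motifs were chosen with earlier results of these data known.

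The data are ATAC-seq peak lists, which name stretches of DNA that a transposase could reach, from primary erythroblasts of adult male C57BL/6J mice of 5 to 6 weeks. There was 1 group of 2 biological replicates, with 50000 cells for each library, no treatment and no second genotype. Both replicates carry the same donor identifier in the labels, so the spread between them may be partly technical, and the sources used here do not give how the cells were isolated. Without read counts in the lists, library depth is unknown, and each height is the authors' own value for that peak.

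Beta globin genes encode the beta-type chains of hemoglobin, and in the cluster the embryonic genes stand nearer the locus control region than the adult genes. Hbb-y and Hbb-bh1 are made in the primitive red cells of the embryo, whereas Hbb-bs and Hbb-bt supply the adult chains. The locus control region is a group of enhancers upstream of Hbb-y, known as sites of open chromatin bound by GATA1, TAL1 and NF-E2, and it contacts whichever globin gene is active. The olfactory receptor genes around the cluster serve smell and are silent in most other tissues.

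The promoters of 11 of 12 erythroid marker genes were open in both replicates, all but Alas2, beside 41.4% of all protein-coding genes. A promoter was called open when each replicate's thresholded list had an interval within 1 kb of an annotated start site. Open promoters numbered 0 of 6 for B cell markers, 1 of 6 for T and NK cell markers (Lck), 0 of 6 for granulocyte and monocyte markers and 2 of 6 for megakaryocyte markers (Itga2b and Gp1ba).

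The 5 sites upstream of Hbb-y that both replicates listed carry the result, and their sequences are shown for the letters that stand near their summits. Each is named by the distance of its summit from the Hbb-y 5′ end and is printed from the GRCm38.p6 genome on the plus strand, against the direction of transcription. Capitals mark GATA letters, AGATAA or TGATAA and also AGATAG or TGATAG, on either strand, and NF-E2 letters, TGAGTCA on either strand. The window is 75 bp to either side of the replicate 1 summit, and it is longer to the left at the 7.95-kb site so as to hold a pair of NF-E2 matches.
6.09-kb site (chr7:103859228-103859378, plus strand): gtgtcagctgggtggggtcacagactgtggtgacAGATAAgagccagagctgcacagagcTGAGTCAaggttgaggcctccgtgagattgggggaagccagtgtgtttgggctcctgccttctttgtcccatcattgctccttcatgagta
7.95-kb site (chr7:103861076-103861242, plus strand): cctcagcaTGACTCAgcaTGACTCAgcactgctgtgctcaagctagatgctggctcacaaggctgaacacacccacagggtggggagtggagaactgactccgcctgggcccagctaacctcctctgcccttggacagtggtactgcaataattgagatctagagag
12.7-kb site (chr7:103865829-103865979, plus strand): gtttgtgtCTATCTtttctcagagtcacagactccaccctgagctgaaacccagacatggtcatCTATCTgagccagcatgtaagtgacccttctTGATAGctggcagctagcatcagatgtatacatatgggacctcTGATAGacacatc
17.7-kb site (chr7:103870793-103870943, plus strand): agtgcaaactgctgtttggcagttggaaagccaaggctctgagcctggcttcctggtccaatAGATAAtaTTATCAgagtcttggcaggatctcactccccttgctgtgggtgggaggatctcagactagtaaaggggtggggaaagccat
24.1-kb site (chr7:103877222-103877372, plus strand): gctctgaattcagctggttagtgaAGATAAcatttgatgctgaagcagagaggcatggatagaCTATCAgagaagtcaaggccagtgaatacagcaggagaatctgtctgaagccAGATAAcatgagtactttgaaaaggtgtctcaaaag

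The promoters of 4 globin genes are shown because the adult and embryonic genes differed in whether they were open. They come from the RefSeq promoter table of GRCm38.p6, which matched 8 of the 9 genes and not Hbb-bh1, and are printed in the direction of transcription as the 250 bases that end just before the RefSeq start. Capitals mark CACACCC (the CACCC box), CCAAT as well as ATAAAA (for the TATA box) and the GATA letters, on either strand. Only these exact letters were sought. Near forms stay in lower case, such as tataaa at Hbb-bt, atataa at Hbb-bs and ccaccc at Hbb-y. A promoter without capitals for a box may therefore still hold a form of it.
Hbb-bt promoter (chr7:103813924-103814173, minus strand): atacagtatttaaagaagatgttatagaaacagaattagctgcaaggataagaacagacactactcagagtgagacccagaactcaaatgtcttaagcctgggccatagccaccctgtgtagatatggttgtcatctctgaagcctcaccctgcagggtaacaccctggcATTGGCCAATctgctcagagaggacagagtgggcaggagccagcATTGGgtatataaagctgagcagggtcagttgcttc
Hbb-bs promoter (chr7:103827929-103828178, minus strand): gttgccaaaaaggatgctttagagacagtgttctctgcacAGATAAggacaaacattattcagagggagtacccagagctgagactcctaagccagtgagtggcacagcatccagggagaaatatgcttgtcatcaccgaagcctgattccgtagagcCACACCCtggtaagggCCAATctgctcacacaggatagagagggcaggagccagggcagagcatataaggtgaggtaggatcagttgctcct
Hbb-bh2 promoter (chr7:103840522-103840771, minus strand): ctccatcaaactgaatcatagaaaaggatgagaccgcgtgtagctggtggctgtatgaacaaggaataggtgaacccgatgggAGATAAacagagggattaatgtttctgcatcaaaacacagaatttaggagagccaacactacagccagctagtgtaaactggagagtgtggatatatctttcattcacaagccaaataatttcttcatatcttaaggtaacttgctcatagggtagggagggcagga
Hbb-y promoter (chr7:103853208-103853457, minus strand): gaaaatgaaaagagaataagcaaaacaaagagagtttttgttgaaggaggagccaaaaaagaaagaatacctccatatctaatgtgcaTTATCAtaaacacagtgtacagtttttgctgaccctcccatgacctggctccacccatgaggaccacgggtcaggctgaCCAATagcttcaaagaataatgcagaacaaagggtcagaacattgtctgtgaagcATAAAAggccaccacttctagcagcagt

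Open sites of the window fell into 3 blocks: 1 site beside Olfr67, 4 at the adult genes and 5 upstream of Hbb-y. These 10 sites were in the thresholded lists of both replicates, which share 91.1% of replicate 1 intervals and 86.3% of replicate 2 intervals over the whole genome. All 10 window intervals of replicate 1 recurred in replicate 2, and 1 interval of replicate 2 had no partner. In the thresholded lists, no interval lay between that of the Hbb-bs promoter and that of the 6.09-kb site, where the embryonic genes stand. The Hbb-bs start and the strongest replicate 1 summit of the 6.09-kb site are 31.2 kb apart. Intervals covered 5.50% of the window in replicate 1 and 5.60% in replicate 2.

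**Figure D1:**
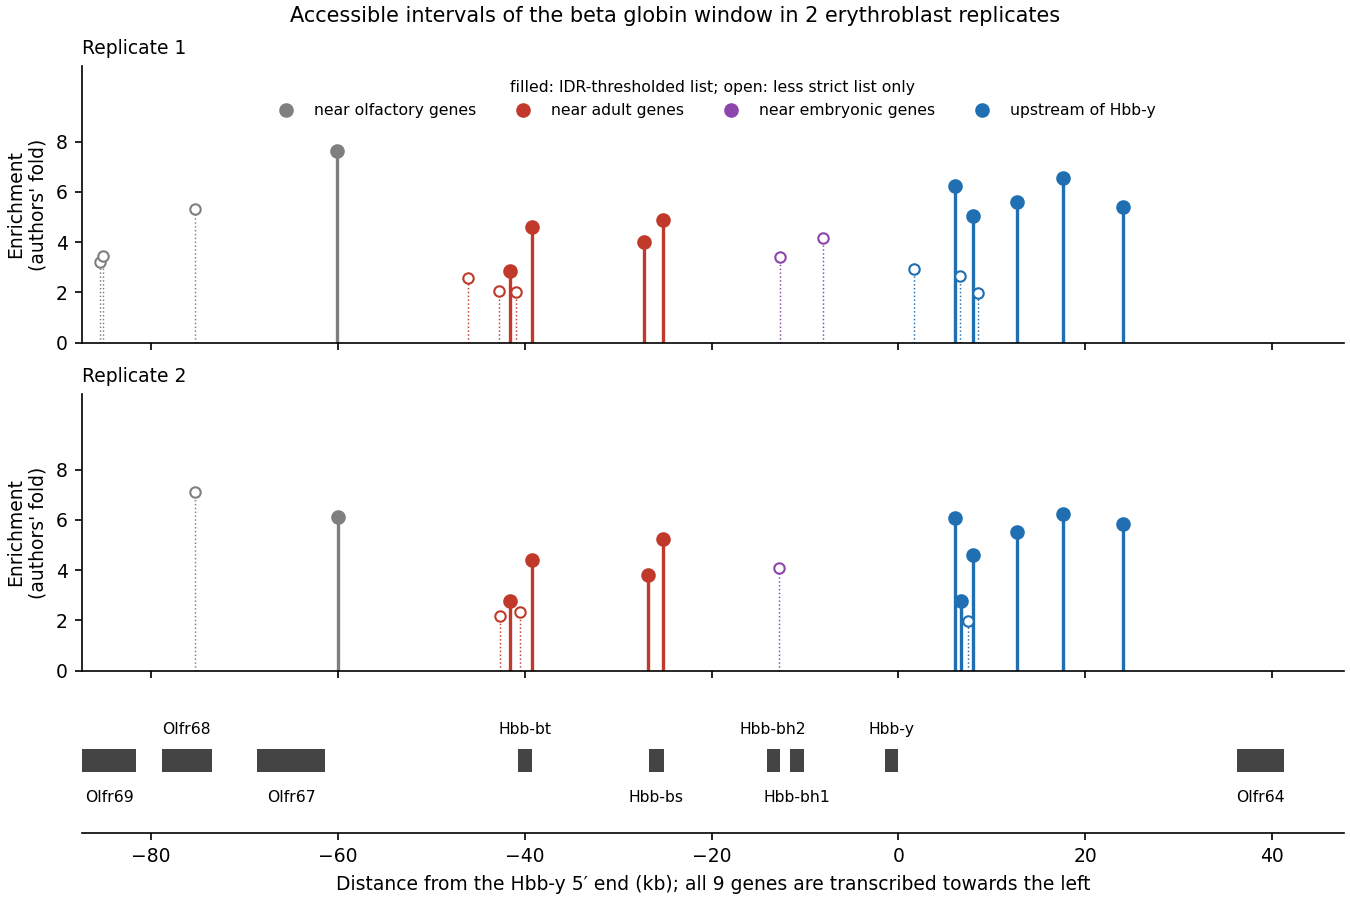
Enrichment of each interval (the authors' fold over background, vertical axis) by the distance of its strongest summit from the Hbb-y 5′ end (horizontal axis, kb), for replicate 1 above and replicate 2 below, with the 9 genes as dark blocks. Filled points are in the IDR-thresholded list and open points in the less strict list alone. The adult genes and the stretch upstream of Hbb-y hold filled points in both replicates. Near the embryonic genes stand open points alone, at Hbb-bh2 in both replicates and upstream of Hbb-bh1 in replicate 1.

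The 5 upstream sites had nearly the same enrichment in both replicates and nearly the same summit. Enrichment is the fold over background that the authors' peak caller gave at the strongest summit. The 6.09-kb site had an enrichment of 6.22 in replicate 1 and 6.08 in replicate 2 (mean 6.15 ± 0.0959, SD over n = 2 here and below). The 7.95-kb site had 5.05 and 4.60 (4.82 ± 0.319), the lowest of the 5 in both replicates. The 12.7-kb site had 5.60 and 5.52 (5.56 ± 0.0556). The 17.7-kb site had 6.54 and 6.22 (6.38 ± 0.231), the highest of the 5 in both replicates. The 24.1-kb site had 5.39 and 5.84 (5.61 ± 0.321). Its order against the 12.7-kb site turned between the replicates, so those neighbours did not differ beyond their spread. The highest and the lowest site did not overlap, since the lowest value at 17.7 kb, 6.22, lay above the highest at 7.95 kb, 5.05.

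The summits of the 2 replicates lay within a few bases of each other. They were at 103859303, 103861167, 103865904, 103870868 and 103877297 in replicate 1, and the replicate 2 summits were 4, 2, 2, 3 and 3 bp away. Gaps between neighbours among these 5 were 1.86, 4.74, 4.96 and 6.43 kb, and the group spanned 18.0 kb. The gaps widened with distance from the genes for the 5 alone. Weaker sites described below, such as that at 20.03 kb within the last gap, were not counted. All 5 summits are intergenic in GENCODE M21. In each interval of the 5 sites, 0% of the 50-base words were found elsewhere in the genome. Repeat masking of the genome covers 26.1% of the 6.09-kb site, 6.18% of the 7.95-kb site, 3.14% of the 12.7-kb site, 17.5% of the 17.7-kb site and 0% of the 24.1-kb site.

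The −log10 p of the caller ordered the same sites in another way. It was 68.5 and 68.9 at the 6.09-kb site, 56.8 and 49.7 at the 7.95-kb site, 69.2 and 71.1 at the 12.7-kb site and 75.5 and 73.3 at the 17.7-kb site in replicates 1 and 2. At the 24.1-kb site it was 28.9 and 34.4, the lowest of the 5 in both replicates, although its enrichment was above that of the 7.95-kb site in both. The 17.7-kb site was the highest by both measures.

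Around these 5 sites stood 5 weaker ones, none of which was in the thresholded lists of both replicates. A site 6.67 kb upstream was in the thresholded list of replicate 2 (enrichment 2.77) and in the less strict list of both (2.64 in replicate 1). Its IDR was 0.161 in replicate 1 and 0.0360 in replicate 2, on either side of the threshold of 0.05. Sites at 1.69 kb (2.92) and 8.51 kb (1.99) were in the less strict list of replicate 1, and a site at 7.45 kb (1.98) in that of replicate 2. The site at 20.03 kb was in no list of either replicate, but the series-level thresholded, conservative and replicated lists held it with an enrichment of 3.01. With these, the replicated list had 10 sites upstream of Hbb-y.

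**Figure D2:**
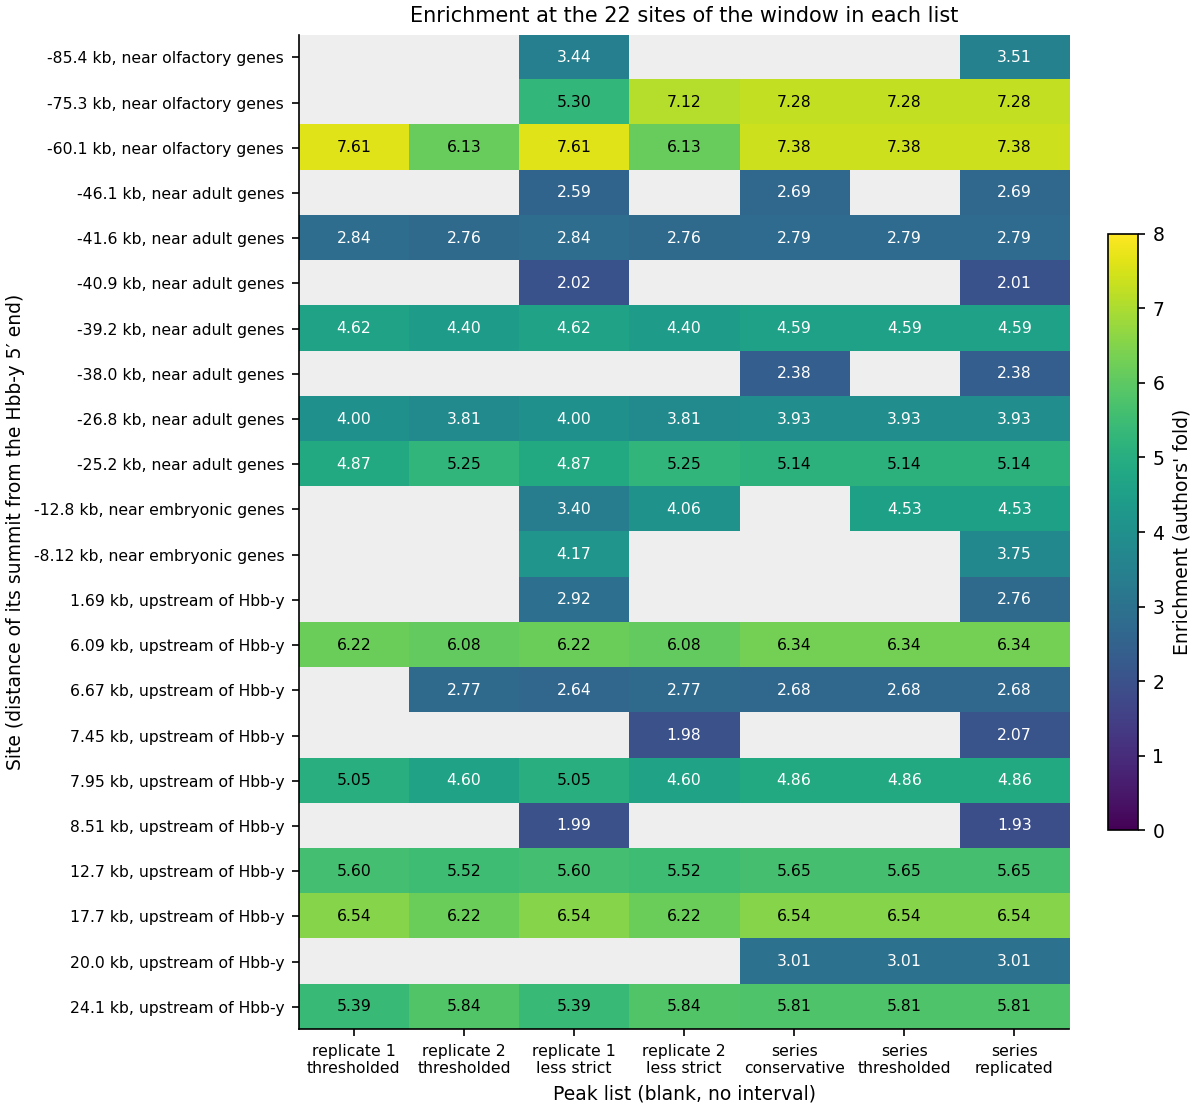
Enrichment (colour and printed value, the authors' fold) at the 22 sites of the window, in rows by distance from the Hbb-y 5′ end, in each of 7 peak lists, in columns; grey cells hold no interval. The 5 sites at 6.09, 7.95, 12.7, 17.7 and 24.1 kb are filled in every column, and 10 of the 22 rows are filled in both thresholded columns.

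By enrichment the beta globin intervals ranked in the lower part of their lists, whereas by −log10 p some stood above the list median and some below it. None of the 10 intervals of replicate 1 exceeded the median enrichment of its list, 7.83, and none of the 11 of replicate 2 exceeded 7.74. By −log10 p, 6 of 10 exceeded the median of 42.4 in replicate 1, and 6 of 11 exceeded 42.6 in replicate 2. Over the 5 upstream sites the mean enrichment was 5.76 in replicate 1 and 5.65 in replicate 2 (5.70 ± 0.0762). Their median percentile within the list was 20.3 and 24.2 by enrichment (22.2 ± 2.72), and 73.2 and 72.4 by −log10 p (72.8 ± 0.563).

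The gap between the 2 ranks varied from site to site. At the 12.7-kb site the percentile by −log10 p exceeded that by enrichment by 53.5 points in replicate 1 and 53.8 points in replicate 2, and 0.169% and 0.127% of all peaks had a gap as large. At the Hbb-bs promoter the gap was 55.5 and 59.3 points, which 0.0788% and 0.0212% of all peaks reached (14 of 17777 and 4 of 18837). The 24.1-kb site was unlike its neighbours, with 14.02 and 15.99 points, reached by 25.2% and 22.1% of peaks. The Olfr67 site went the other way, at -27.9 and -24.8 points. The sources used here do not give the caller's rule for the background, and what sets the gap was not tested.

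**Figure D3:**
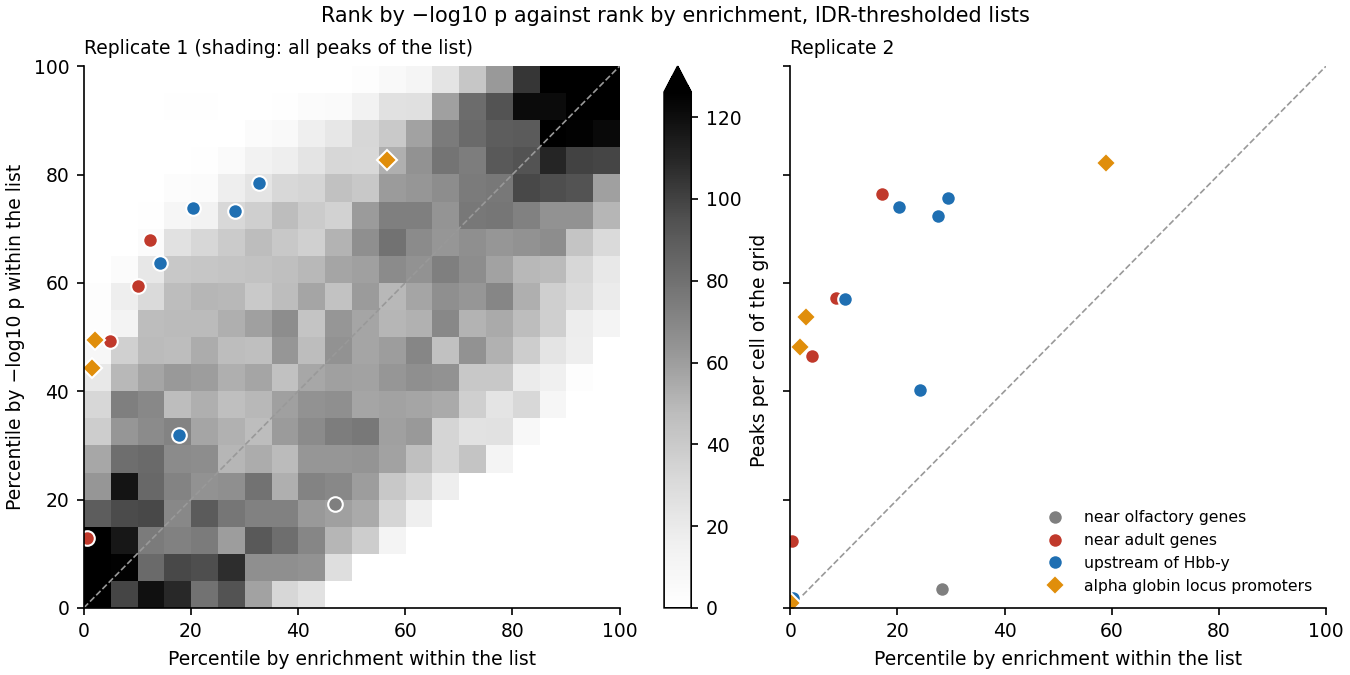
Percentile within the thresholded list by −log10 p (vertical axis) against that by enrichment (horizontal axis), for the window's intervals by region and the open promoters of the alpha globin locus, replicate 1 left and replicate 2 right. Grey shading counts all peaks of replicate 1 and the dashed line marks equal ranks; 4 of the 5 sites upstream of Hbb-y and 3 of the 4 adult sites stand far above the line in both panels, and the Olfr67 site stands below it.

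Both adult genes were open at the promoter and a second time past the end of the gene. Hbb-bt, which encodes an adult beta chain, had a promoter interval with an enrichment of 4.62 in replicate 1 and 4.40 in replicate 2 (4.51 ± 0.158). Hbb-bs, the other adult beta chain, had 4.87 and 5.25 (5.06 ± 0.271). Hbb-bs was higher in both replicates, and the 2 pairs of values did not overlap. The −log10 p was 51.9 and 49.9 at Hbb-bt and 62.0 and 74.5 at Hbb-bs.

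Downstream, the genes differed more. The interval past Hbb-bt had an enrichment of 2.84 and 2.76 (2.80 ± 0.0572), with summits 895 and 881 bp beyond the gene end. The interval past Hbb-bs had 4.0 and 3.81 (3.91 ± 0.133), which is near the promoter values of Hbb-bt. That interval was 1256 and 1475 bp wide and reached 361 and 576 bp into Hbb-bs in replicates 1 and 2. The interval past Hbb-bt lay wholly outside its gene. A lower summit of the interval past Hbb-bs stood inside the gene (3.37 and 3.34). The 2 highest summits of that interval were of nearly equal height in both replicates. They lay at 103826036 (4.0) and 103826448 (3.91) in replicate 1, and at 103826047 (3.78) and 103826438 (3.81) in replicate 2, so the order of the 2 heights turned between the replicates. The strongest one was therefore 498 bp beyond the gene end in replicate 1 and 96 bp in replicate 2. The other 9 sites in both thresholded lists had strongest summits 36 bp apart or less.

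**Figure D4:**
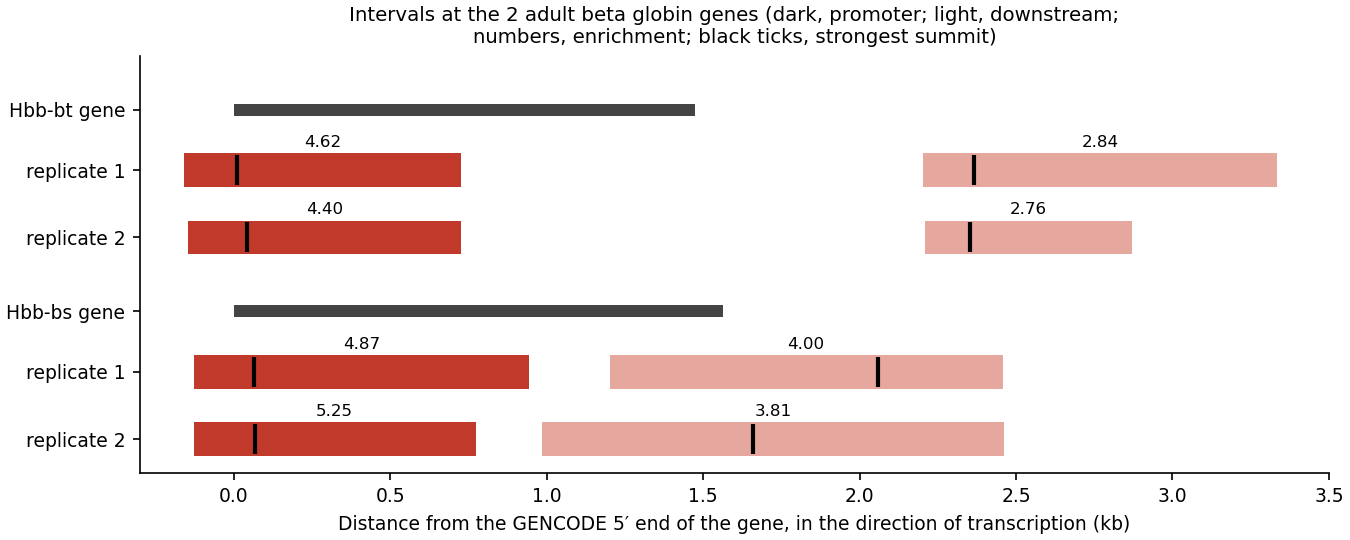
Intervals of the thresholded lists at Hbb-bt and Hbb-bs by distance from the GENCODE 5′ end along the direction of transcription (kb), with the gene as a dark bar and a row per replicate. Dark red intervals cover the 5′ end, light red ones lie downstream, ticks mark the strongest summit and numbers give the enrichment; the downstream interval reaches 4.0 and 3.81 at Hbb-bs and 2.84 and 2.76 at Hbb-bt.

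Part of the adult intervals is sequence that occurs more than once in the genome. Hbb-bt and Hbb-bs were 95.8% identical over 1466 aligned bases, and 69.0% and 65.1% of the 50-base words of the 2 genes occur elsewhere in the genome. For the promoter intervals this share was 54.3% and 55.0% at Hbb-bt and 56.7% and 48.5% at Hbb-bs in replicates 1 and 2. The downstream intervals had 1.59% and 1.97% at Hbb-bt and 12.2% and 24.9% at Hbb-bs. The 3 embryonic genes had 0%. Read length and pairing, which bear on whether a read from such a word can be placed, were not known, the sources used here do not say how the authors treated such reads, and the effect on the difference between Hbb-bt and Hbb-bs was not tested.

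The promoter letters shown above lay close to the adult summits. RefSeq places the start 73 bp inside the GENCODE 5′ end at Hbb-bt and 168 bp inside it at Hbb-bs. Counted from the RefSeq start, the Hbb-bs summit lay at -103 in replicate 1 and -99 in replicate 2, beside the CACACCC match at -92 to -86 and the CCAAT match at -76 to -72. The Hbb-bt summit lay at -63 and -32, between and at CCAAT matches at -80 to -76, -75 to -71 and -36 to -32, the first and last of them on the opposite strand. The Hbb-bt window of 300 bases had no CACACCC match, which 7.95% of all 32851 promoters of the table hold, against 37.4% for CCAAT. Hbb-bs also had AGATAA at -210 to -205, and 29.8% of promoters hold GATA letters.

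The embryonic genes were closed in the thresholded lists of both replicates, 0 of 3 open. Over all 9 members, 3 were open (Hbb-bt, Hbb-bs and Olfr67), beside 41.4% of all protein-coding genes. In the less strict lists 5 of 9 were open, with Hbb-bh2 and Olfr68 added, beside 46.6% of all protein-coding genes. Hbb-bh2, a beta-like gene of the cluster, had an enrichment of 3.40 in replicate 1 and 4.06 in replicate 2 (3.73 ± 0.471) with a −log10 p of 6.39 and 9.25. Those values are below every promoter value of the adult genes in the same lists. Its IDR was 0.339 and 0.0648, both over the threshold. The 0.339 of replicate 1 is a tied value, shared with other sites of the window that its thresholded list lacks. The series-level thresholded list held the site while the conservative list did not. Despite its name, the conservative list is the longer of these, with 26050 intervals against 24717.

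Hbb-bh1, an embryonic beta-like chain, had no interval within 1 kb of its start in any of the 7 lists. The nearest site of the replicated list has its summit 1936 bp upstream, and the less strict list of replicate 1 also held it (enrichment 4.17). Of that site, 77.4% is masked as repeats in the genome. Hbb-y, the embryonic beta-like gene next to the locus control region, also had no promoter interval in any list. Its nearest thresholded summit was 5.80 kb upstream, a second summit within the interval of the 6.09-kb site. The Hbb-y promoter holds ATAAAA at -28 to -23, CCAAT at -83 to -79, which overlaps TGACCA (a BCL11A-type match) at -86 to -81, and TTATCA, the reverse of TGATAA, at -162 to -157. ATAAAA stands in 18.5% of all promoters and TGACCA in 13.6%. A match is a description of letters and does not show that a factor binds.

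Beside the cluster, Olfr67 had the highest enrichment of the window in replicate 1. Its interval had 7.61 in replicate 1 and 6.13 in replicate 2 (6.87 ± 1.04), the widest spread of the 10 shared sites. The −log10 p was 22.1 and 14.7, low in the lists, at percentiles of 19.1 and 3.45. The interval did not cover the start of Olfr67: its nearest edge was 1000 bp upstream in replicate 1 and 934 bp in replicate 2, so the call stands at the limit of the 1 kb rule. Of the 4 olfactory members 1 was open, against 2 of all 1135 olfactory receptor genes (0.176%), Olfr67 itself included. In the less strict lists 2 of 4 were open, against 8 of 1135 (0.705%), with Olfr67 and Olfr68 among the 8.

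Olfr68 had an interval with an enrichment of 5.30 in replicate 1 and 7.12 in replicate 2 in the less strict lists (6.21 ± 1.28), 275 and 230 bp from a start site inside the gene. Olfr69 had 2 intervals within an exon in the less strict list of replicate 1, at 3.21 and 3.44, over 1 kb from its start. At both sites, 59.2% (Olfr68) and 58.3% (Olfr69) of 50-base words occur elsewhere in the genome. Olfr64, on the far side of the locus control region, had no interval in any list near its start, and its nearest thresholded summit lay at -15.7 kb in both replicates, upstream of it and outside the window.

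Letters of the CTCF consensus, a factor known for domain borders, stood at 2 places in the window, and both lay in sites of the replicated list outside the globin genes. They are shown, with the match in capitals, because they flank the adult genes on the side away from the locus control region.
Olfr67 site (chr7:103793071-103793221, plus strand): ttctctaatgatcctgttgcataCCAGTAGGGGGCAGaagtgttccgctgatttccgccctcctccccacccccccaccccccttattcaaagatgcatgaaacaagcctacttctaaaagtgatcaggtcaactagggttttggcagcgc
Site beyond Hbb-bt (chr7:103807028-103807178, plus strand): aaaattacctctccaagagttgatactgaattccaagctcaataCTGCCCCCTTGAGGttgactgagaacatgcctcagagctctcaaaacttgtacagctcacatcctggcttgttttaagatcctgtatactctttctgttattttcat

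The first is the Olfr67 site, where the match lay within 75 bp of the replicate 1 summit but not of the replicate 2 summit, 36 bp away. The second has its replicated-list summit 5427 bp beyond the Hbb-bt end and is in the less strict list of replicate 1 (enrichment 2.59). It is also in the conservative list but not in the series-level thresholded list. The matches stand on opposite strands. In the stretch upstream of Hbb-y there was no match. Of the 5 shared sites 0 had one, against 15.2% of distal peaks of replicate 1 (those over 1 kb from any start site). With 5 sites, a count of 0 is not far from that share. Only letters that fit 1 consensus pattern were sought, so a site without a match may still hold another form.

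GATA letters stood within 75 bp of the summit at 4 of the 5 upstream sites in both replicates, against 45.9% of distal peaks of replicate 1. The 12.7-kb site held 4 matches, the 24.1-kb site 3, the 17.7-kb site 2 and the 6.09-kb site 1. At least 3 matches stood at 2 of 5 sites, against 2.37% of distal peaks. At the 17.7-kb site 2 matches on opposite strands were centred 10.5 and 2.5 bp left of the replicate 1 summit, and the second of them was the GATA match closest to a replicate 1 summit at the 5 sites. Letters of a composite of an E box and GATA, CTG then 8 or 9 bases then GATA, which overlap a GATA match in each case, stood at 3 of 5 (6.09, 17.7 and 24.1 kb), against 17.7% of distal peaks.

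NF-E2 letters stood within 75 bp of the summit at 2 of the 5, the 6.09-kb and 7.95-kb sites, against 8.21% of distal peaks. At the 6.09-kb site the match was centred 12 bp left of the replicate 1 summit. The 7.95-kb site had none of the GATA letters in that window and held 2 NF-E2 matches, on 1 strand, whose starts are 10 bp apart, centred 80 and 70 bp left of the summit. Such a pair, with starts at most 20 bp apart inside the interval, was found in 20 of 7243 distal peaks of replicate 1 (0.276%) and 20 of 7900 of replicate 2 (0.253%). The 12.7-kb site had a match 123 bp right of its summit.

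**Figure D5:**
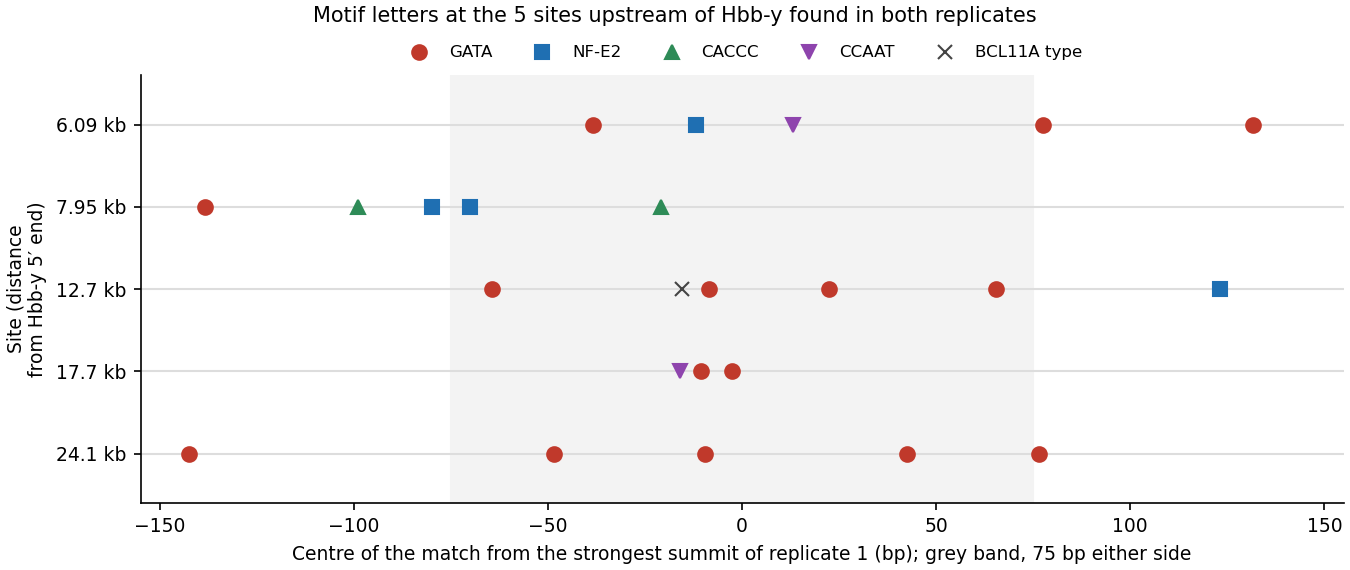
Centres of motif letters by distance from the strongest replicate 1 summit (horizontal axis, bp) at the 5 sites upstream of Hbb-y that both replicates listed, in rows by distance from the Hbb-y 5′ end. The grey band is 75 bp to either side; GATA matches stand in the band in 4 rows, NF-E2 matches in 2, and the row at 7.95 kb holds the pair of NF-E2 matches with starts 10 bp apart.

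Other letters were also sought at the 5 sites. CACACCC stood at the 7.95-kb site alone, against 11.3% of distal peaks. CCAAT stood at the 6.09-kb and 17.7-kb sites, against 16.8%, and TGACCA at the 12.7-kb site, against 9.71%. Over the whole upstream stretch there were 11 NF-E2 matches, of which 4 (36.4%) lay in thresholded intervals of replicate 1, and 104 GATA matches, of which 17 (16.3%) did. Those intervals cover 8.93% of the stretch.

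The stretch upstream of Hbb-y was dense in open sites. Cutting all chromosomes into tiles of the same length, 31.7 kb, 0.225% of tiles (193 of 85967) held at least 5 intervals of replicate 1 shared with replicate 2. The mean was 0.188 a tile, 88.2% of tiles held none, and the highest count was 9. Counting distal intervals alone, 23 tiles held at least 5, and the highest count was 6. The tiles follow each other at fixed steps and can cut a group of sites. The stretch, in contrast, was placed to hold the known locus control region, so the shares describe and do not test its density.

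Of 20799 protein-coding genes with olfactory and other beta globin genes left out, 19 had at least 5 distal shared intervals in the same length upstream of the 5′ end, Hbb-y among them. Hbb-y had 5, with enrichments that sum to 28.8. By the rule for genes of like pattern, Cdk5rap3 had 7 with a sum of 32.8, and the others had 5: Fam205a1 (56.1), Prrc2b (32.3), Dennd4a (31.7) and Taf8, a subunit of the general factor TFIID (31.7). Genes with equal numbers were ordered by that sum, so the sums of the named genes are high by choice.

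At the alpha globin locus on chromosome 11, the adult promoters ranked low by enrichment and near the middle of the list by −log10 p. Beside the beta promoter percentiles by enrichment of 10.2 and 8.52 at Hbb-bt and 12.3 and 17.1 at Hbb-bs, Hba-a1 ranked at 1.44 and 1.77 and Hba-a2 at 2.14 and 2.90. By −log10 p the beta promoters ranked at 59.5 and 57.1 (Hbb-bt) and 67.9 and 76.4 (Hbb-bs), against 44.3 and 48.1 at Hba-a1 and 49.5 and 53.6 at Hba-a2. The share of repeated words was not computed for the alpha globin genes, so its bearing on these ranks was not tested. The embryonic gene Hba-x had no thresholded promoter interval, Hbq1a had one in replicate 2 (enrichment 2.22) and Hbq1b none. Nprl3, whose introns hold the alpha globin enhancers, had an interval of 8.37 and 8.53 at a start site, above every interval of the beta globin window.

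Of 17 genes that act on beta globin or its switch, 13 (76.5%) had an open promoter in both replicates, beside 41.4% of all protein-coding genes. They were Gata1, Tal1, Lmo2, Ldb1, Zfpm1 and Klf1, which bind or bridge erythroid enhancers and promoters, Nfe2, Mafk, Mafg and Bach1, which bind NF-E2 letters, Ctcf, Zbtb7a and Sox6. Bcl11a, known to repress the embryonic genes in adult cells, Myb, Lin28b and Igf2bp3 were not open. An open promoter is no measure of the gene's expression.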

How the data were processed

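Peak lists of ATAC-seq from 2 biological replicates of mouse erythroblasts were used, in mm10 coordinates per the labels. Each deposited line gives a summit with its fold enrichment over background and its −log10 p, as the authors' caller set them. The deposited ranked lists also give a score, the −log10 of the IDR, and the largest IDR of a thresholded peak was 0.0500 in both replicates. The sources used here do not give the alignment, the peak caller or the handling of reads that match several places. No read counts are in the lists, so depth is unknown, which limits what a missing peak shows.

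An interval was a distinct set of coordinates on chromosomes 1 to 19, X and Y, counted from 1, and its strongest summit by enrichment gave its place. Sites of the window were the intervals of the replicated list, and each replicate's intervals were assigned to them by that summit. Sharing needed an overlap of 1 bp. Genes came from GENCODE M21, sequence from GRCm38.p6 (read with pysam 0.24.0), whose chromosomes hold all intervals of the lists, and promoters from RefSeq. Motif letters were searched in the 75 bp to either side of the summit, on both strands. A word was repeated where its 50 bases occur elsewhere on these chromosomes, on either strand, and the adult genes were aligned with Biopython 1.88 (match 2, mismatch -1, gap open -4, gap extension -0.5). The overlap, promoter, motif and word searches were tested on simulated data.

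With 1 group and no contrast, no test was run: values are given per replicate or as mean and SD (n = 2), beside shares over all peaks, genes or promoters. No step that makes enrichment comparable between lists is given, so ranks are within a list. All 9 members were named, with 6 genes of the alpha globin locus and the 5 genes of most like pattern upstream. That pattern was the number of distal shared intervals in a stretch of the same length upstream of the 5′ end, ties by summed enrichment, with 1 gene where stretches overlap. The members, the gene lists, the motifs and the rule were chosen with earlier results of these data known. The rank gaps and the NF-E2 pairs were picked out after their values were seen. Other lists, a stricter threshold, overlaps, promoter widths, start sites, motif windows and leaving out either replicate were tried as alternatives.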

Additional observations from a re-analysis of the deposited data

How the results depend on the processing

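Most values depended on which list was used. The mean of 10.5 intervals in the window was 18.5 with the less strict lists, 22 in the replicated list, and 0 when each list was restricted to intervals at or above its median enrichment; the last also left 0 upstream sites and 0 open members, so their enrichment, percentile and motifs could not be computed. Upstream sites numbered 10 in the replicated list in place of 5. Open members numbered 5 of 9 in place of 3 with the less strict lists, the series-level thresholded list and the replicated list. The mean enrichment of the upstream sites, 5.70, was 5.20 with the less strict lists, 4.98 in the series-level thresholded and conservative lists and 4.17 in the replicated list. These means run over 6, 7 and 10 upstream sites in place of 5, and the added sites are weaker. The 5 sites themselves have the same enrichments in the less strict lists, and 4.86 to 6.54 in the series-level lists. The median percentile of the upstream sites, 22.2, was 49.6, 31.0, 33.7 and 33.6 in these 4 kinds of list, which differ in length and in the sites counted. With a motif window of 50 bp to either side, 1 site in place of 2 held NF-E2 letters; with 150 bp or the whole interval, 3 sites did, and 5 held GATA letters. With promoters of 500 bp to either side, 2 members in place of 3 were open, as the Olfr67 interval lies farther off. With 1 replicate left out, the mean enrichment ran from 5.17 to 5.76; the lower value is that of replicate 2 alone, which adds the 6.67-kb site. Of 60 values under these alternatives, 41 lay within 1.5 times the main count or within the SD of the replicates. An overlap of 50% of the shorter interval, promoters of 2 kb and the outermost start alone changed none of the values computed with them. No paired analysis was possible because there is 1 group. The unknown depth limits the sites that 1 list lacks.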

Other observations

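The window also holds genes outside the 9 members. Olfr66, whose start lies 33.0 kb upstream of the Hbb-y 5′ end, and the pseudogenes Hbb-bh3, Hbb-bh0, Gm15115 and Dnajc19-ps make up the 14 annotated genes.

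NF-E2 letters also stood at the weak 8.51-kb site, centred at -61 bp from its replicate 1 summit. The Hbb-bs promoter interval held a match at 26 to 32 from the RefSeq start. Outside the stretch upstream of Hbb-y, the letters stood near the summit at 2 weak sites. The first, with its summit at -38.0 kb between Hbb-bt and Hbb-bs, was in no list of either replicate. The conservative list held it with an enrichment of 2.38, but the series-level thresholded list did not. The other weak site was that 1936 bp upstream of Hbb-bh1. A pair of NF-E2 matches with starts 13 bp apart, at 103825525 and 103825538 on chromosome 7, lay outside every interval of the replicated list.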
